A study of Homo sapiens with 32 samples.

Results

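Polycomb repressive complex 2 (PRC2) was described here through the transcripts of 10 of its subunits, EZH1, EZH2, SUZ12, EED, RBBP4, RBBP7, JARID2, MTF2, PHF19 and AEBP2. They were chosen by name, as core and accessory subunits of the complex, and all 10 were found among the 28278 gene symbols of the count tables and, by Ensembl gene, among the 60199 genes of the knockdown table. The data are RNA-seq of the Ewing sarcoma lines A673, SK-N-MC and A4573, made to study the loss of the cohesin subunit STAG2. The question asked of the subunits was whether any of them is higher where another is disrupted, and whether the loss of STAG2 or of its paralog STAG1 goes with another composition of the complex.

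In A673, every KO clone was derived from 1 clone (WT) that carries a doxycycline-inducible Cas9 (iCas9) at the AAVS1 locus, so that control and KO clones share the Cas9 insertion. Controls were libraries of that unedited clone and of the parental line, which has no Cas9. Experiment 1 held 3 controls (2 WT and 1 parental) and 2 STAG2 KO libraries, numbered 5 and 24. Experiment 2 held 3 controls (2 WT and 1 parental), STAG2 KO clones 2, 3 and 5, EZH2 KO clones 1 to 3 and SUZ12 KO clones 1 to 3, and the 3 KO groups share these controls. Experiment 3 held 1 WT, 1 parental and 3 STAG1 KO libraries, numbered 1, 5 and 7. In experiment 4, A673 cells labelled WT, which by the methods were mock transfected, were compared with cells given siRNA against STAG2 (siSTAG2), with 3 libraries each. The isogenic pairs had 1 library per arm. They were A4573 cells, which by the methods lack STAG2, against the same cells with STAG2 restored (STAG2 KI), and SK-N-MC cells (labelled SKNMC) against a STAG2 KO. The labels give iCas9 as the genotype of all 4 arms, whereas the methods describe inducible Cas9 for A673 and a transfected Cas9 for the restored A4573 cells. Nothing in the labels says whether the libraries of 1 clone came from separate cultures, so p-values measure the spread between these libraries, which may in part be technical.

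PRC2 places methyl groups on lysine 27 of histone H3, up to the trimethylated form H3K27me3 that marks silent developmental genes. Either EZH2 or its paralog EZH1 is the catalytic subunit, SUZ12 is the scaffold, EED reads the mark and stimulates the enzyme, and RBBP4 or RBBP7 binds histones. Accessory subunits define alternative forms of the complex, with a Polycomb-like protein such as MTF2 or PHF19 in PRC2.1 and JARID2 and AEBP2 in PRC2.2. EZH2 is high in dividing and embryonic cells and is a known target of EWS::FLI1, the fusion factor of Ewing sarcoma, whereas EZH1 is the paralog of resting cells.

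The start sites of 4 subunits whose transcripts are described below are shown as background, and no result below rests on these sequences. RefSeq windows on GRCh38.p14, from 250 bases before to 50 after a start site, were available for all 10 subunits, with 2 windows for each of RBBP4, RBBP7, EZH2, JARID2 and PHF19, 15 in all. In the first 3 sequences, read 5′ to 3′ on the strand of the gene, capitals mark a match to a form of the E2F site (TTTGGCGC, TTTCGCGC, TTTCCCGC or TTTGCCGC, searched on both strands). E2F proteins are transcription factors of cell cycle genes. In the fourth, capitals mark each CpG, the dinucleotide whose dense stretches Polycomb-like proteins bind.
EZH2, chr7:148884242-148884541, minus strand: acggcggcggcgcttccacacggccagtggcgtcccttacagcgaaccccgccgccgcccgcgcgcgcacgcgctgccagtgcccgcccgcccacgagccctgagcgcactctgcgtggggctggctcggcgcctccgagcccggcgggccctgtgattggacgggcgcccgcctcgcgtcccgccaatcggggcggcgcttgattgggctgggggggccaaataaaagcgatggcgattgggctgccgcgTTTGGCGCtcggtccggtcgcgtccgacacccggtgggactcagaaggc
PHF19, chr9:120877139-120877438, minus strand: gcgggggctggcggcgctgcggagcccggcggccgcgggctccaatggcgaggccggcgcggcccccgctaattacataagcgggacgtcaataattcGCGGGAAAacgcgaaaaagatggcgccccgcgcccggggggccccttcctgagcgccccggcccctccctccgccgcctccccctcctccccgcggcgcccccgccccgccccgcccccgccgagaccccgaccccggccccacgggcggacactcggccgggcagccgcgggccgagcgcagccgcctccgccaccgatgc
MTF2, chr1:93079033-93079332, plus strand: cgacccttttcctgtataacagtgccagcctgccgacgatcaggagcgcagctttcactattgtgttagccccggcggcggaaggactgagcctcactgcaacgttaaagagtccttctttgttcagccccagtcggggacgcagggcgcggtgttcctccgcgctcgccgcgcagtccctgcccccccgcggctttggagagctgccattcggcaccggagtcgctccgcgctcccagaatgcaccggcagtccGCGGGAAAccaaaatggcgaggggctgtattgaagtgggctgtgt
JARID2, chr6:15248605-15248904, plus strand: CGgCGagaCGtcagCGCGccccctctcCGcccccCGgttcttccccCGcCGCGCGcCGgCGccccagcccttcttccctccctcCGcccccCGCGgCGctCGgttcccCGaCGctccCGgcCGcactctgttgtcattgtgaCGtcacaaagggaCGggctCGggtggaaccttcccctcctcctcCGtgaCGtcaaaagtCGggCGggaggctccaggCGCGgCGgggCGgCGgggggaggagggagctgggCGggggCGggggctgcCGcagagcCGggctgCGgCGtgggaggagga
Of the 15 windows, 6 held 1 match each, in EZH2, EZH1, SUZ12, AEBP2, MTF2 and PHF19, while 3.31% of all 35116 RefSeq windows held at least 1. Every form searched contains a CpG, and all 15 windows held more CpG than the median window. The 2 shares therefore do not compare like windows and show no enrichment. For EZH2 and PHF19 the window with a match is shown, and the other window of each held none. GGAAGGAA, a run of the repeat that EWS::FLI1 binds, was in none of the 15 and in 3.67% of all windows. The JARID2 window shown held 40 CpG, as many as or more than 93.3% of all windows, and the other JARID2 window held 24 (68.0%). The EED window held the fewest of the 15, 16 CpG, against a median of 14 over all windows. These matches describe letters in a window and were not tested for binding.

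Read totals were 15734628 to 20663679 per library in experiments 1 to 3 and 29322507 to 32261248 in the isogenic pairs, and 6852340 to 8184632 reads were recovered per library of the knockdown. Levels below are CPM, read counts relative to the library total after scaling by the TMM method, and values of experiment 4 are the authors' normalized reads, which are on another scale. Of 10 markers of Ewing sarcoma cells, 9 had enough reads to be tested in each KO comparison, and their summed level was 2608 to 3372 CPM in STAG2 KO libraries of experiment 1 (controls 3589 to 4010) and 2476 to 2612 CPM in those of experiment 2 (controls 3200 to 3474). The single markers went both ways in STAG2 KO libraries. Of the 9, 2 were called higher (NR0B1, 0.78, and BCL11B, 0.59) and 2 lower (PRKCB, −0.97, and CCND1, −0.56), where 12.4% of all genes were called. Their median log2 fold change was 0.26, against 0.04 over all genes. The part of the summed level in the results was not tested. CD99, a surface marker of Ewing sarcoma, was listed at 0 reads in every A673 library of experiments 1 to 3. In the A673 cells of experiment 4, all 10 markers, CD99 among them, had enough reads to be tested. The 0 reads are therefore no sign that the cells lack CD99, and their cause was not tested. Of 8 markers of other cell types, HBB and CD3E had 0 and 1 reads over all 22 A673 libraries. The other 6 summed to 2.529 to 3.35 CPM in EZH2 KO, 3.433 to 8.527 CPM in SUZ12 KO and at most 3.227 CPM in every other A673 library. In the controls of experiment 2 they summed to 0.954 to 1.449 CPM. Of 3 of them with enough reads 1 rose in EZH2 KO and 2 in SUZ12 KO, where 12% and 14.7% of all genes rose. A marker near 0 in the controls could have enough reads only through the KO clones and then had to be higher. These counts are therefore no support for a direction. In 2 cases a library stood apart. STAG2 KO clone 5 of experiment 2 differed from the other clones of its group by a mean chi-square of 112.76 and 140.19 per gene, against 25.72 between those 2. STAG1 KO library 1 held STAG1 transcripts at the level of the controls, 61.2 CPM. The WT libraries of experiment 1 differed from each other by a mean chi-square of only 1.33 per gene, near counting noise, against 9.41 between those of experiment 2. They were kept as 2 replicates but may be technical ones, which bears most on calls within experiment 1 alone. With these 2 libraries summed, 1154 genes and 2 of the 10 subunits were called in STAG2 KO over both experiments, against 1687 and 3. In bulk RNA, fewer cells holding a transcript and less RNA per cell cannot be told apart.

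EZH2, SUZ12 and STAG2 transcripts were lower in every library labelled as their KO but were not lost. EZH2 (ENSG00000106462, chromosome 7, 148807257 to 148884321) was at 45.5, 55.6 and 28.3 CPM in EZH2 KO clones 1 to 3 and at 170, 174 and 196 CPM in the controls, and its log2 fold change was −1.98 (SE 0.203, adjusted p = 0.000137, edgeR quasi-likelihood test). SUZ12 (ENSG00000178691, chromosome 17, 31937007 to 32001038) was at 15.8, 11.2 and 20.7 CPM in SUZ12 KO clones and at 59.4, 65.8 and 61.3 CPM in the controls, with −1.90 (SE 0.232, adjusted p = 0.000299). The means of the KO clones were 24% and 25.6% of control. Such residual transcripts say nothing of the protein, which read counts do not measure. STAG2 was at 42.9 to 184 CPM in STAG2 KO libraries, the highest in library 24, and at 258 to 354 CPM in their controls, and its log2 fold change was −1.81 with an adjusted p of 0.00424. After knockdown STAG2 was at 15.1% of control. STAG1 in the STAG1 KO libraries had a log2 fold change of −0.80 (SE 0.51, adjusted p = 0.376).

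In the 8 control libraries of experiments 1 to 3, the level per kilobase of the canonical transcript was highest for RBBP7 (73.5 ± 13.9 CPM per kb, SD, n = 8), RBBP4 (57.6 ± 7.25) and EZH2 (57.4 ± 9.59). PHF19 (18.1 ± 1.44), MTF2 (16.3 ± 1.94), EED (15.4 ± 4.92), SUZ12 (13.9 ± 0.713) and JARID2 (12.3 ± 3.47) formed a second group, followed by AEBP2 (9.71 ± 1.29) and EZH1 (5.33 ± 1.74). The ranges of all neighbours in this order overlapped except those of EZH2 (45.4 to 73.7) and PHF19 (at most 20). EZH2 was the main catalytic paralog by transcript, at 45.4 CPM per kb or more in every control, above the highest EZH1 value. The order depends on the length used, since per kilobase of all annotated exons RBBP4 came first and RBBP7 second, JARID2 moved from rank 8 to 4 and EED from 6 to 9, while EZH2 stayed at 3 and EZH1 at 10. Reads on 2160 exonic bases that RBBP4 shares with SYNC on the other strand, and those that match pseudogene copies of SUZ12 and RBBP4, cannot be assigned with certainty in these non-directional libraries.

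The catalytic paralogs differed between the experiments even in controls. EZH1 was at 23.6 to 29.1 CPM in the controls of experiment 1, at 15.3 to 16.4 in experiment 2 and at 33.6 to 35.0 in experiment 3, while EZH2 ran the other way, with 141 to 147, 170 to 196 and 120 to 127 CPM. The summed level of 20 proliferation genes ran in the same order as EZH2, with 4575 to 6155 CPM in the controls of experiment 1, 7380 to 7732 in experiment 2 and 3974 to 4490 in experiment 3. The part of proliferation in these levels was not tested. Comparisons below were made within experiments or with the experiment as a term.

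**Figure D1:**
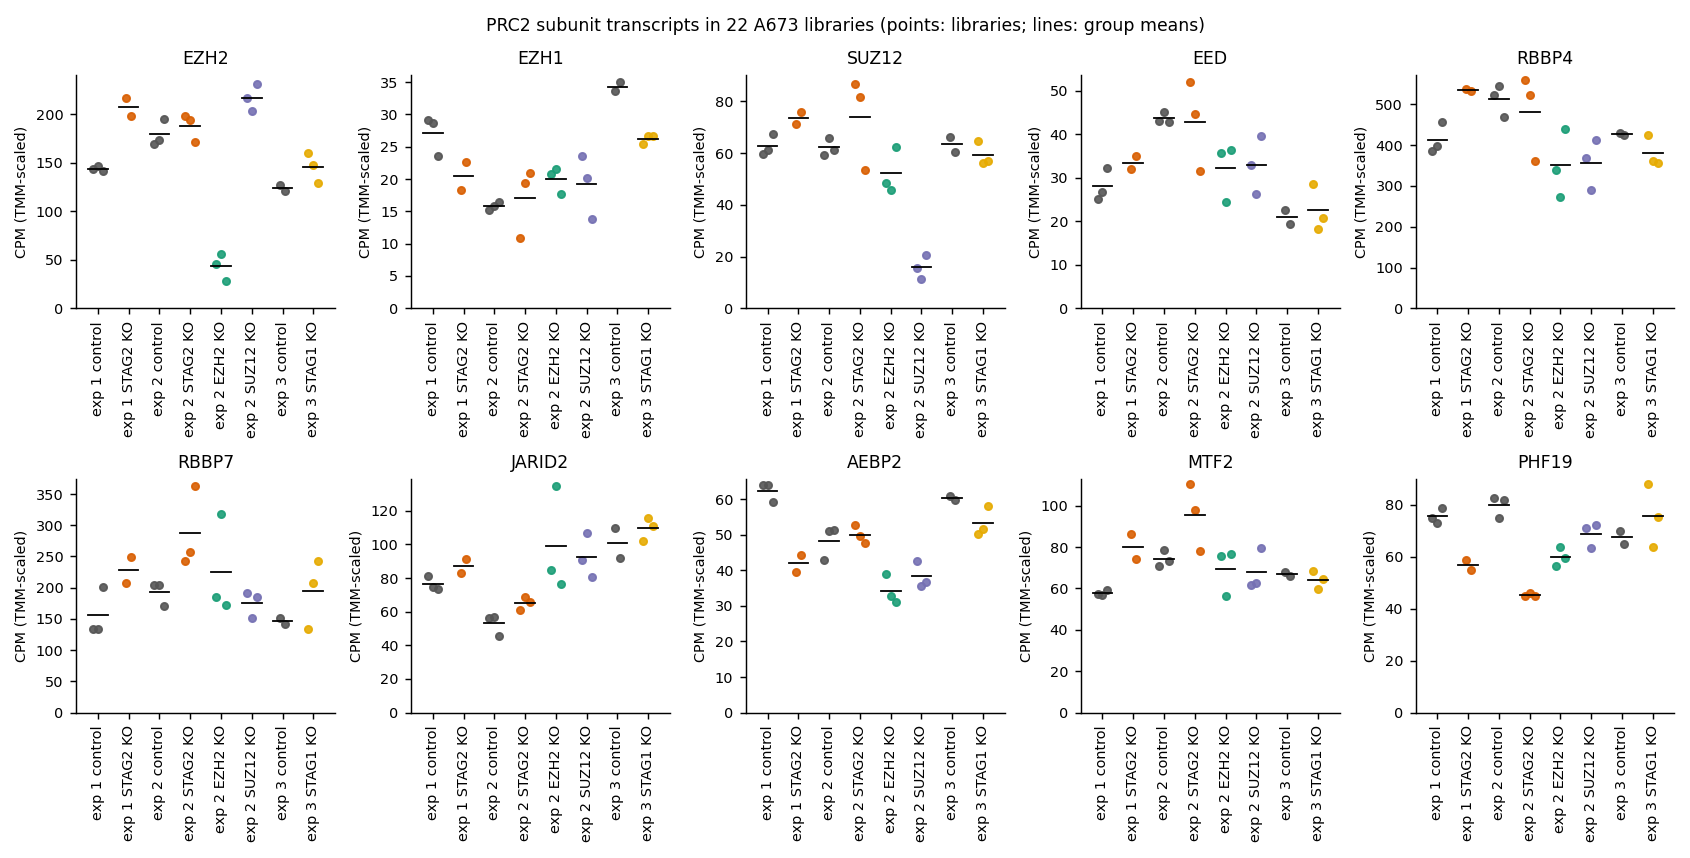
TMM-scaled CPM of each PRC2 subunit (vertical axes, from 0) in the 22 A673 libraries of experiments 1 to 3, by experiment and group (horizontal axes). Points are libraries and lines are group means. EZH2 is lowest in the EZH2 KO clones and SUZ12 in the SUZ12 KO clones, PHF19 is lower in all 5 STAG2 KO libraries than in their controls, and JARID2 is higher in all 6 EZH2 KO and SUZ12 KO clones than in the controls of experiment 2.

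Disruption of EZH2 left the transcripts of the other core subunits without a called change. Of all 15130 genes tested, 15.7% were called in EZH2 KO clones (12% higher and 3.69% lower, edgeR quasi-likelihood test, Benjamini-Hochberg adjusted p under 0.05). Of the 10 subunits 3 were, the targeted EZH2 itself and PHF19, lower, and JARID2, higher, and 5 had an unadjusted p under 0.05, against 30.2% of all genes. The paralog EZH1 (ENSG00000108799, chromosome 17, 42700275 to 42745049) was at 20.7, 21.6 and 17.7 CPM in the clones and at 15.3, 15.9 and 16.4 CPM in the controls. All 3 clones lay above all 3 controls, and the log2 fold change was 0.41 (95% interval −0.16 to 0.98, adjusted p = 0.313), so that the interval held both no change and a nearly 2-fold one. It ran from 0.35 to 0.57 over 18 alternative settings and was called in none of them. SUZ12 (−0.17, interval −0.66 to 0.31), EED (−0.37, −0.83 to 0.09), RBBP4 (−0.47, −0.92 to −0.02, adjusted p = 0.148) and RBBP7 (0.30, −0.22 to 0.82) were not called.

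JARID2 (ENSG00000008083, chromosome 6, 15246069 to 15522042), the subunit of PRC2.2 that links the complex to ubiquitinated chromatin and whose start site is shown above, rose. It was at 85.0, 135 and 76.8 CPM in EZH2 KO clones 1 to 3, against 56.1, 57.1 and 45.8 CPM in the controls. Every clone was above every control, clone 2 by the most. The log2 fold change was 0.97 (SE 0.204, adjusted p = 0.00794), and 0.68 without clone 2. AEBP2 (ENSG00000139154), its partner in PRC2.2, did not rise with it. It was at 39.0, 32.8 and 31.2 CPM against 42.8, 51.0 and 51.2 CPM, below all controls, and its log2 fold change of −0.42 (SE 0.131) just missed the threshold (adjusted p = 0.0517).

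Of the Polycomb-like subunits, MTF2 (ENSG00000143033) was at 56.3 to 76.6 CPM in EZH2 KO clones and at 70.7 to 78.7 CPM in controls, and was not called (−0.02, interval −0.37 to 0.34). PHF19 (ENSG00000119403) fell by 0.33 on the log2 scale (SE 0.104, adjusted p = 0.0493), from 82.8, 74.9 and 81.8 CPM in controls to 56.6, 63.9 and 59.5 CPM. The groups did not overlap, but the call was lost in 14 of 18 alternative settings, among them the omission of any EZH2 KO clone or any control, and with library totals as the only scaling the value was −0.17.

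SUZ12 KO clones were compared with the same 3 controls, so that the values beside those of EZH2 KO clones are not independent of them. Of all genes tested 20.6% were called (14.7% higher and 5.87% lower), and of the 10 subunits 2 were, SUZ12 itself, lower, and JARID2, higher. Without adjustment 3 subunits had a p under 0.05, against 34.2% of all genes. JARID2 rose to 90.6, 107 and 80.9 CPM, above all 3 controls, by 0.87 on the log2 scale (SE 0.203, adjusted p = 0.0107). Without the parental control it was 0.76 with an adjusted p of 0.0529. EZH2 itself was at 217, 204 and 231 CPM, above the 170 to 196 CPM of the controls, and its log2 fold change of 0.34 (interval −0.09 to 0.77, adjusted p = 0.244) was called only where the STAG2 KO and EZH2 KO libraries were left out of the fit (0.36, adjusted p = 0.0341). EZH1 was at 13.8 to 23.6 CPM, across the control range, with 0.34 (interval −0.23 to 0.91). EED (−0.34, interval −0.80 to 0.12) and RBBP4 (−0.46, −0.91 to −0.01, adjusted p = 0.142) were not called, and RBBP4 was called where the STAG2 KO and EZH2 KO libraries were left out (−0.44, adjusted p = 0.0476). RBBP4 was at 291, 369 and 412 CPM in SUZ12 KO clones, below the 470 to 546 CPM of the controls.

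EZH2 KO and SUZ12 KO clones were also compared with each other, with no control in the contrast. Of 15130 genes 1 was called (0.00661%), and it was EZH2, with a log2 difference of −2.32 (EZH2 KO minus SUZ12 KO, SE 0.205, adjusted p = 0.00186). SUZ12 differed by 1.73 (SE 0.231) with an adjusted p of 0.0663. Without adjustment 629 genes (4.16%) and 2 of the subunits, EZH2 and SUZ12, had a p under 0.05. JARID2 (0.10, interval −0.34 to 0.54), EZH1 (0.07, −0.50 to 0.64) and AEBP2 (−0.15, −0.43 to 0.14) were not called, and their intervals leave room for differences in either direction.

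The scaling moved these levels. With library totals as the only scaling, the median log2 fold change of all genes was 0.20 in EZH2 KO and 0.19 in SUZ12 KO, against 0.04 and 0.01 with TMM. JARID2 was then at 1.14 and 1.06 and remained called, while AEBP2 was at −0.26 and −0.09. The summed level of the 20 proliferation genes was 4889 to 6437 CPM in EZH2 KO and 4940 to 6945 CPM in SUZ12 KO clones, below all 3 controls (7380 to 7732 CPM), and its part in the levels of the subunits was not tested. Of these 20 genes none was called in EZH2 KO clones, with a median log2 fold change of −0.25, and 1 fell in SUZ12 KO clones (MCM7, a helicase subunit, −0.60, adjusted p = 0.0364), with a median of −0.28.

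**Figure D2:**
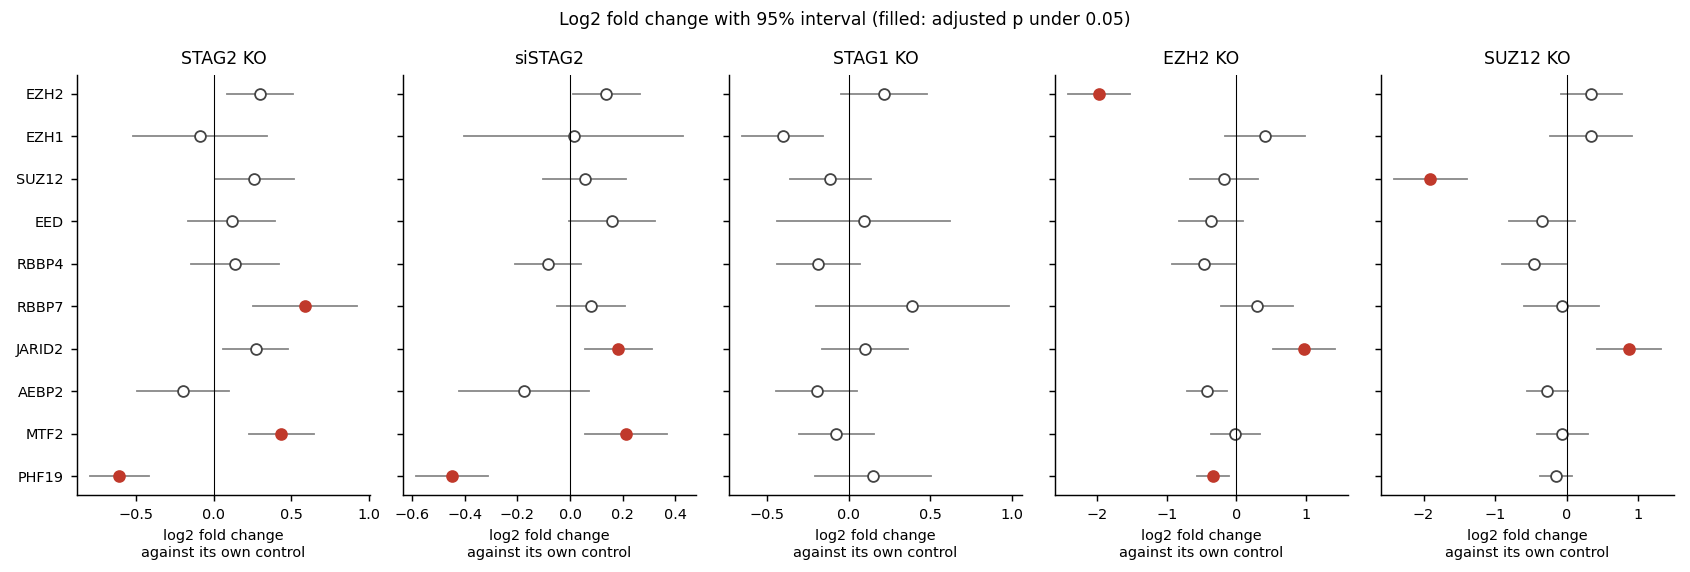
Log2 fold change (horizontal axes) of the 10 PRC2 subunits against their own controls in 5 comparisons, with 95% intervals as lines. The scale differs between panels. Filled points passed the adjusted p of 0.05 over the whole table. PHF19 is filled and below 0 after STAG2 KO and siSTAG2, JARID2 is filled and above 0 in EZH2 KO and SUZ12 KO, and EZH1 is filled in none.

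Genes around PRC2 were examined as lists. Of 24 developmental genes that commonly carry H3K27me3, 18 had enough reads in experiment 2, and 13 rose in EZH2 KO and 14 in SUZ12 KO clones, with none lower, where 12% and 14.7% of all genes rose. Genes at or near 0 in the controls could pass the filter on low counts only through the KO clones and then had to be higher, so these counts and the medians (2.90 and 3.17, against 0.04 and 0.01 over all genes) describe the genes that passed and are no support for a direction of the list. FOXF2, at 0 reads in every control, did not move the medians when set to the bound given by a floor of 3 reads over the controls. GATA4, a heart and endoderm factor, had 0, 1 and 0 reads in the controls and 1156, 566 and 1196 reads in EZH2 KO clones, and 1454, 1748 and 1345 reads in SUZ12 KO clones. CCND2, which encodes cyclin D2, had 0, 1 and 3 reads in the controls and 674 to 1408 reads in the 6 clones. The STAG2 KO clones of the same experiment held at most 2 reads of GATA4 and 7 to 14 reads of CCND2.

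Of 4 other PRC2 partners with enough reads, EPOP, an accessory subunit of PRC2.1, rose in EZH2 KO (1.09, SE 0.245, adjusted p = 0.0118) and in SUZ12 KO clones (1.38, adjusted p = 0.00243), and LCORL in SUZ12 KO clones (0.81, adjusted p = 0.0408). Among 20 genes of PRC1, the complex that ubiquitinates histone H2A, 1 rose and 2 fell in EZH2 KO and 3 rose and 2 fell in SUZ12 KO clones, shares near those of all genes (15.7% and 20.6%). PCGF5, of a variant PRC1, rose in each (1.41, adjusted p = 0.000714, and 1.43, adjusted p = 0.000443). PCGF2, of canonical PRC1, fell in each (−0.66, adjusted p = 0.0128, and −0.77, adjusted p = 0.00429), as did L3MBTL2 (−0.94 and −0.81). Of 12 enzymes that oppose or border H3K27 methylation, CREBBP, which acetylates that lysine, fell in each (−0.57, adjusted p = 0.0109, and −0.47, adjusted p = 0.0221), and KMT2A fell in SUZ12 KO clones (−0.42). The demethylases KDM6A and KDM6B were not called in either. Of 10 other repressive methyltransferases, EHMT1 and EHMT2, which methylate lysine 9 of histone H3, fell in EZH2 KO clones (−0.52 and −0.74), and the DNA methyltransferase DNMT3B rose in SUZ12 KO clones (0.90, adjusted p = 0.0419). None of 3 measured genes of the H2A deubiquitinase was called. The medians of these 5 lists ran from −0.27 to 0.41 in EZH2 KO and from −0.16 to 0.48 in SUZ12 KO, against 0.04 and 0.01 over all genes.

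In STAG2 KO libraries of A673 the Polycomb-like subunits PHF19 and MTF2 and the histone binder RBBP7 were called. Of all 13574 genes tested 12.4% were called in STAG2 KO libraries (6.67% higher and 5.76% lower), with the experiment as a term. Of the 10 subunits 3 were, PHF19, lower, and MTF2 and RBBP7, higher, and 6 had an unadjusted p under 0.05, against 26.6% of all genes. PHF19 fell in both experiments. In experiment 1 it was at 58.8 and 55.1 CPM in the KO libraries, against 74.9, 73.1 and 78.8 CPM in controls. In experiment 2 it was at 44.9, 46.1 and 45.0 CPM in clones 2, 3 and 5, against 82.8, 74.9 and 81.8 CPM. All 5 KO libraries were below all 6 controls, and the 3 clones of experiment 2 were nearly alike. The log2 fold change was −0.61 (SE 0.0862, adjusted p = 0.00117). It was −0.43 in experiment 1 alone (adjusted p = 0.0292) and −0.78 in experiment 2 alone (adjusted p = 0.0173). Of the 3 called subunits, PHF19 alone kept its call in all 20 alternative settings.

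MTF2, the other Polycomb-like subunit measured here, moved the other way. It was at 86.2 and 74.4 CPM in the KO libraries of experiment 1, against 57.0 to 59.1 CPM in controls, and at 110, 97.9 and 78.4 CPM in those of experiment 2, against 70.7 to 78.7 CPM. Clone 5 of experiment 2 was the KO library within the control range. The log2 fold change was 0.44 (SE 0.0958, adjusted p = 0.013). In experiment 1 alone MTF2 was called (0.45, adjusted p = 0.0317), and in experiment 2 alone it was not (0.40, adjusted p = 0.158). Without WT library 1 of experiment 2 the adjusted p was 0.0507.

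RBBP7 (ENSG00000102054, chromosome X, 16839283 to 16870362), the histone binder that PRC2 shares with other complexes, was at 208 and 248 CPM in the KO libraries of experiment 1, against 134, 134 and 202 CPM, and at 242, 258 and 363 CPM in those of experiment 2, against 171 to 204 CPM. All KO libraries were above all controls, with the parental library of experiment 1 well above both WT libraries of that experiment. The log2 fold change was 0.59 (SE 0.153, adjusted p = 0.0285). Neither experiment alone gave a call (0.52, adjusted p = 0.109, and 0.62, adjusted p = 0.131), and the call was lost in 9 of 20 alternative settings, with adjusted p up to 0.131. Its counterpart RBBP4 was not called (0.14, interval −0.15 to 0.42).

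Neither catalytic subunit was called in STAG2 KO cells over both experiments with TMM scaling, while EZH2 was called with library totals as the only scaling (0.30, adjusted p = 0.0303). EZH2 was at 217 and 198 CPM in the KO libraries of experiment 1, above the 141 to 147 CPM of controls, and at 198, 194 and 171 CPM in those of experiment 2, across the control range of 170 to 196 CPM. Its log2 fold change was 0.30 (SE 0.0966, adjusted p = 0.0713), but EZH2 was called in experiment 1 alone (0.51, adjusted p = 0.0198) and not in experiment 2 alone (0.10, adjusted p = 0.639). The difference between the experiments was 0.39 (interval 0.05 to 0.72, adjusted p = 0.126 over all genes). The summed level of the proliferation genes was 6400 to 7118 CPM in the KO libraries of experiment 1, above controls (4575 to 6155 CPM), and 4250 to 6808 CPM in those of experiment 2, below controls (7380 to 7732 CPM). Their part in the level of EZH2 was not tested. Without clone 5 of experiment 2, EZH2 (0.34, adjusted p = 0.0164) and SUZ12 (0.34, adjusted p = 0.0134) were called beside the other 3. EZH1 (−0.09, interval −0.52 to 0.35), EED (0.12, −0.16 to 0.40), JARID2 (0.27, 0.06 to 0.48, adjusted p = 0.0924) and AEBP2 (−0.20, −0.50 to 0.10) were not called. With DESeq2 JARID2 was called (0.26, adjusted p = 0.0398). AEBP2 was called within experiment 1 (−0.60, adjusted p = 0.0189), where both KO libraries (39.5 and 44.3 CPM) were below all controls (59.1 to 64.1 CPM), and was at 0.09 within experiment 2.

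The effects of STAG2 KO in experiments 1 and 2 were compared directly. Of 13574 genes 0.0% were called with edgeR, and 4150 (30.6%) had an unadjusted p under 0.05. Among them were 3 of the 10 subunits, EZH2, AEBP2 (−0.70, adjusted p = 0.0764) and PHF19 (0.33, adjusted p = 0.138). DESeq2 called these 3, but it called 2216 of 14437 genes in this contrast.

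The knockdown of STAG2 in A673 had its own controls. Of 12060 genes tested 20.5% were called (9.54% higher and 11% lower, limma on log2 of value + 1). Of the 10 subunits 3 were, PHF19, lower, and MTF2 and JARID2, higher, and 4 had an unadjusted p under 0.05, against 32.2% of all genes. PHF19 was at 585, 616 and 593 normalized reads in siSTAG2 libraries, against 842, 804 and 805 in mock transfected cells, with no overlap, and fell by 0.45 on the log2 scale (SE 0.0662, adjusted p = 1.39e-05). Its call held in all 11 alternative settings. MTF2 was at 584, 549 and 579, against 531, 499 and 450, again without overlap, and rose by 0.21 (SE 0.0756, adjusted p = 0.0474). JARID2 was at 1125, 1200 and 1167, against 1029, 1069 and 976, and rose by 0.18 (SE 0.0623, adjusted p = 0.0363). The last 2 calls were fragile. That of MTF2 was lost without mock library 2 or 3 or any siSTAG2 library, with adjusted p up to 0.233 without mock library 3. That of JARID2 was lost without mock library 1 or 3 or siSTAG2 library 2 or 3, with adjusted p up to 0.152 without siSTAG2 library 2.

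RBBP7, called in the KO clones, was not called after knockdown (0.08, interval −0.05 to 0.21). EZH2 was at 1372, 1233 and 1277 normalized reads, above the 1145 to 1213 of mock transfected cells, with 0.14 (interval 0.01 to 0.27, adjusted p = 0.12). EZH1 was low in this experiment, at 34.3 to 51.2 normalized reads in all 6 libraries, and its value of 0.01 (interval −0.40 to 0.43) was the least precise of the 10. SUZ12 (0.06), EED (0.16), RBBP4 (−0.08) and AEBP2 (−0.17) were not called. Of the 20 proliferation genes 5 fell, among them TOP2A (−0.22, adjusted p = 0.00823) and MCM6 (−0.21, adjusted p = 0.0188), with a median of −0.13 against 0.01 over all genes.

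**Figure D3:**
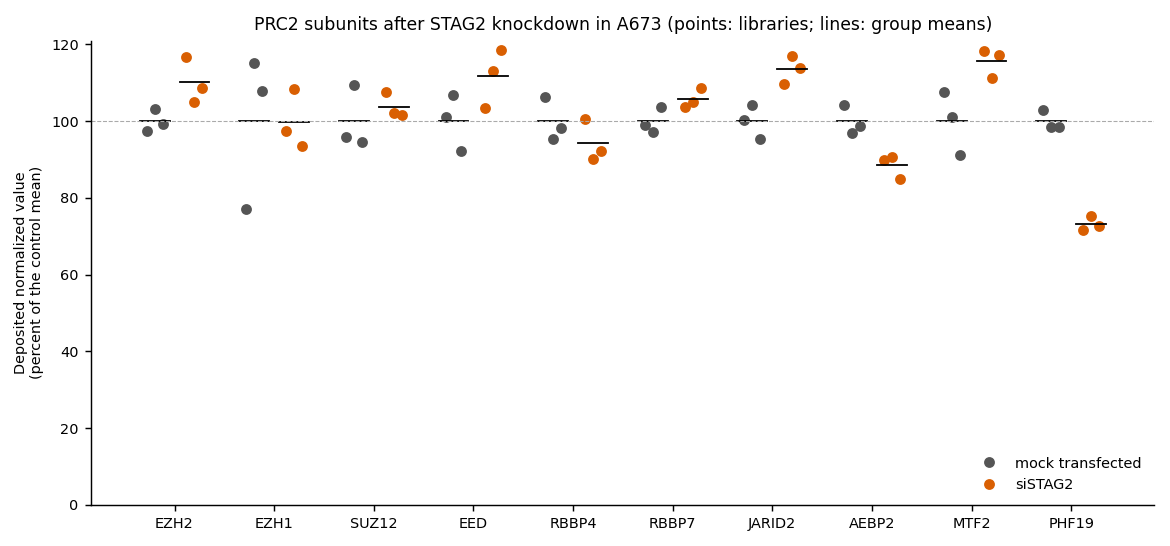
Deposited normalized values of the 10 PRC2 subunits in experiment 4 as percent of the mean of the 3 mock transfected libraries (vertical axis, from 0). Points are libraries and short lines are group means. PHF19 lies at 73.2% of control on average with the groups well apart, and MTF2 and JARID2 lie at 116% and 114%.

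Within a library, the ratio of MTF2 to PHF19 does not depend on the scaling between libraries. Per kilobase of canonical transcript it was 0.764 to 0.794 in the controls of experiment 1 and 1.37 and 1.49 in the STAG2 KO libraries. In experiment 2 it was 0.869 to 1.07 in controls and 1.77 to 2.5 in STAG2 KO clones, but 0.897 to 1.36 in EZH2 KO and 0.881 to 1.13 in SUZ12 KO clones, which overlapped with the controls. In experiment 3 it was 0.984 and 1.04 in controls and 0.795 to 0.953 in STAG1 KO libraries. In experiment 4 it was 0.569 to 0.642 in mock transfected and 0.908 to 1.02 in siSTAG2 libraries. In each of the 3 experiments with STAG2 loss, every STAG2 KO or siSTAG2 library had a higher ratio than every control. The ratio of EZH1 to EZH2 was 0.0481 to 0.0524 in the controls of experiment 2 and 0.222 to 0.359 in EZH2 KO clones, where EZH1 was at 126% of control. EZH2, the denominator, was the targeted gene there and at 24% of control, which raises this ratio by itself, and EZH1 was not called. The ratio was lower in the STAG2 KO libraries of experiment 1 (0.0485 and 0.0654) than in their controls (0.0957 to 0.116), and overlapped with controls in experiment 2. The height of such ratios depends on the transcript lengths assumed, whereas their difference between libraries does not.

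**Figure D4:**
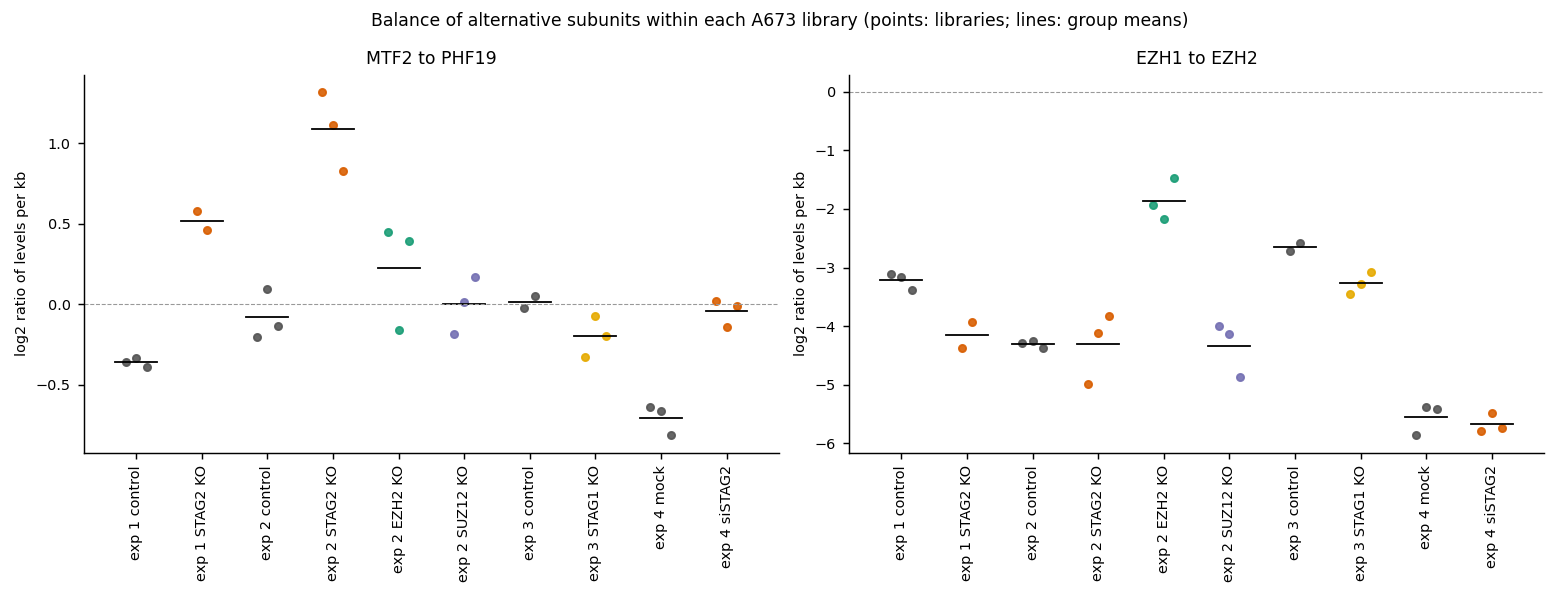
Log2 ratio of the levels per kb of MTF2 to PHF19 (left) and of EZH1 to EZH2 (right) in each A673 library of experiments 1 to 4 (vertical axes), by group. Points are libraries and lines are group means. The MTF2 to PHF19 ratio is higher in all STAG2 KO and siSTAG2 libraries than in the controls of their experiment. The EZH1 to EZH2 ratio is highest in EZH2 KO clones, where its denominator is the targeted gene.

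In STAG1 KO cells 5.27% of 14373 genes were called (2.77% higher and 2.5% lower), and none of the 10 subunits (edgeR, 1 with an unadjusted p under 0.05, against 24.9% of all genes, and 1 called by DESeq2, in both cases EZH1). EZH1 was at 25.5, 26.6 and 26.6 CPM in the KO libraries and at 33.6 and 35.0 CPM in the controls, all below, with −0.41 on the log2 scale (SE 0.102, adjusted p = 0.0769). PHF19 was at 87.9, 63.8 and 75.3 CPM, across the controls of 64.9 and 70.1 CPM (0.15, interval −0.21 to 0.50), and MTF2 at 59.7 to 68.7 CPM against 66.2 and 67.8 CPM (−0.08, −0.31 to 0.15). RBBP7 was at 133 CPM in library 1, which kept STAG1 transcripts, and at 207 and 242 CPM in libraries 5 and 7, against 142 and 151 CPM. Over all 5 libraries its value was 0.39 (adjusted p = 0.369), and without library 1 it was 0.61 (adjusted p = 0.0311).

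The effect of STAG2 KO minus that of STAG1 KO, tested as a contrast over 16 libraries, was called for 6.11% of 14696 genes (2.36% higher and 3.75% lower) and for 1 of the 10 subunits, PHF19 (−0.80, SE 0.175, adjusted p = 0.0154). Without adjustment PHF19 and MTF2 had a p under 0.05, 2 of 10, against 19.4% of all genes. For MTF2 the difference was 0.47 (interval 0.14 to 0.81, adjusted p = 0.0984) and for RBBP7 0.16 (interval −0.47 to 0.79).

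The isogenic pairs had no replicates, so their differences were given as log2 CPM without minus with STAG2, with no test. In A4573, where STAG2 was at 32.7 CPM without and 83.7 CPM with the restored gene, 21.9% of 16124 genes differed at least 2-fold (7.68% higher and 14.2% lower without STAG2), and of the 10 subunits 1 did, EZH2. It was at 115 CPM without STAG2 (3608 reads) and at 41.3 CPM with STAG2 KI (1346 reads), a difference of 1.48. EED (74.0 against 41.2 CPM, 0.84), RBBP7 (302 against 180 CPM, 0.75) and PHF19 (37.4 against 26.1 CPM, 0.52) were also higher without STAG2. JARID2 (−0.44) and AEBP2 (−0.37) were lower.

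In SK-N-MC, 21.5% of 16413 genes differed at least 2-fold (10.3% higher and 11.3% lower without STAG2) and none of the 10 subunits did. STAG2 transcripts were at 192 CPM in the KO and 304 CPM in the control. PHF19 was at 46.5 CPM without and 82.8 CPM with STAG2 (1360 and 2629 reads), a difference of −0.83, and RBBP7 at 382 and 239 CPM (0.68). EZH2 was lower without STAG2, at 257 against 376 CPM (−0.55), opposite to A4573, and MTF2 was lower too (−0.48). The direction of PHF19 in SK-N-MC was that of A673 and its direction in A4573 was not, while RBBP7 was higher without STAG2 in both pairs. The MTF2 to PHF19 ratio was 1.6 without and 1.26 with STAG2 in SK-N-MC, and 4.24 and 5.39 in A4573. The median difference of all genes was −0.005 in A4573 and −0.001 in SK-N-MC.

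**Figure D5:**
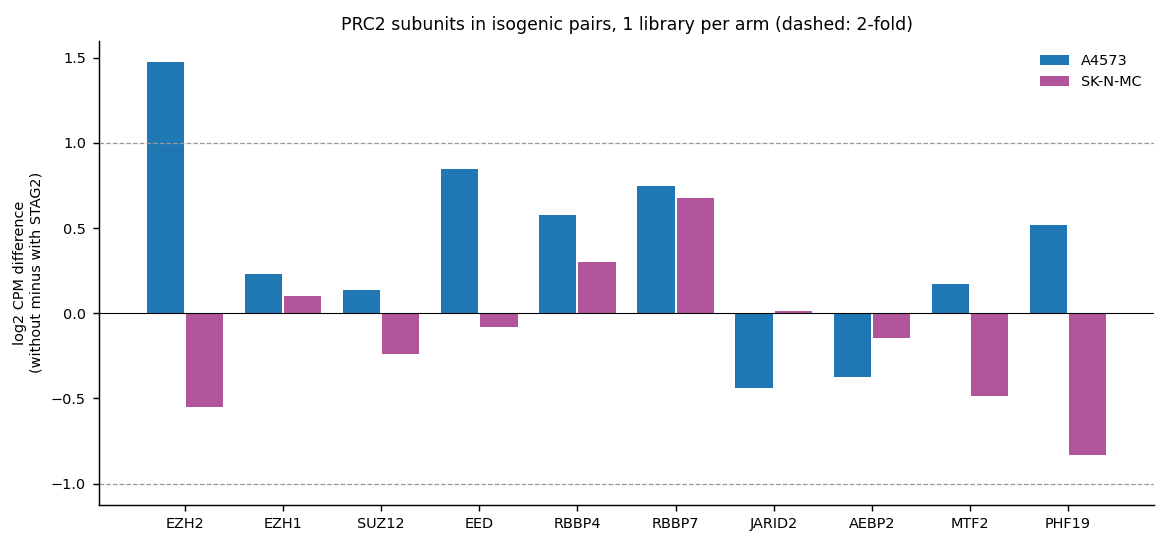
Log2 CPM difference (vertical axis, without minus with STAG2) of the 10 PRC2 subunits in the isogenic pairs of A4573 and SK-N-MC, with 1 library per arm and no error. Dashed lines mark 2-fold. EZH2 in A4573 is the only bar past 2-fold, and EZH2 and PHF19 point in opposite directions in the 2 pairs.

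Other genes of the pathway after STAG2 or STAG1 loss were called as follows. Of 4 measured PRC2 partners none was called in STAG2 KO, STAG1 KO or siSTAG2 cells. Of 20 PRC1 genes, PHC3 rose in STAG2 KO (0.35, adjusted p = 0.0495). In siSTAG2 cells CBX2 (0.22) and PCGF3 (0.27) rose. In STAG1 KO cells PCGF5 rose (0.999, adjusted p = 0.0412) and CBX2 fell (−0.74, adjusted p = 0.02). Of the 12 enzymes around H3K27 methylation, KMT2C rose in STAG2 KO (0.48, adjusted p = 0.0144), and none of the 10 other repressive methyltransferases was called in STAG2 KO, STAG1 KO or siSTAG2 cells. Of the 24 developmental genes 9 could be tested in STAG2 KO libraries, with a median of −0.18 against 0.04 over all genes. Of these 2 rose, GATA2 (1.94, adjusted p = 0.037) and GATA3 (2.57, adjusted p = 0.0144), where 6.67% of all genes rose. In experiment 2 both genes overlapped with controls. GATA2 was at 17.26 to 37.51 CPM in the KO clones. The parental control was at 29.91 CPM and the WT libraries at 7.81 and 8.36 CPM. GATA3 was at 1.17 to 9.02 CPM, against 1.68 CPM in the parental and 0.31 and 0.34 CPM in the WT libraries. In siSTAG2 cells 1 of 8 developmental genes rose (WT1, 0.78, adjusted p = 5.89e-07), where 9.54% of all genes rose. WT1 went the other way in the STAG2 KO clones of experiment 2, without being called over both experiments. It was at 4.61, 1.42 and 4.56 CPM in clones 2, 3 and 5, against 11.6, 12.2 and 16.4 CPM in the controls.

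Likeness between transcripts was described over the 16 libraries in which neither EZH2 nor SUZ12 was targeted, as Pearson's r of log2 CPM centred within experiments, among 8338 genes averaging 20 CPM or more. These libraries share controls and experiments, so r is a description without a test. STAG2 KO and STAG1 KO libraries are among them, and values were not centred by genotype. The r values therefore also hold the genotype differences given above. TOX2 (0.94), ST3GAL4 (0.93) and PRDM4 (0.92) were most like EZH2, and SYNGR1 (0.93), DTX3 (0.92) and CCDC57 (0.90) most like EZH1. Between the catalytic paralogs r was −0.62. Among the subunits r was highest for SUZ12 and MTF2 (0.825) and for EED and RBBP4 (0.81), and lowest for EZH2 and AEBP2 (−0.78), JARID2 and PHF19 (−0.71) and MTF2 and PHF19 (−0.67).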

How the data were processed

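The authors made non-directional oligo-dT libraries and aligned single-end reads to the human genome hg38. The submitters' processing notes name SAMtools 0.1.16, TopHat2 2.0.0 and Bowtie 0.12.7. For the KO clones and isogenic pairs the authors deposited counts, whole numbers of reads per gene symbol without normalization. The authors gave the knockdown as a signal, that is read counts divided by 1 factor per library, and 100% of them gave whole reads within a tolerance of 0.01 reads.

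Libraries were grouped by the genotype in their labels. Tests on counts used edgeR 4.0.16 under R 4.3.3 (quasi-likelihood test after filterByExpr and TMM), with experiment as a term for STAG2 KO and 1 fit of 12 libraries for EZH2 KO and SUZ12 KO. Knockdown values were compared by limma 3.58.1 on log2(value + 1) for genes with a mean of at least 10. Calls required a Benjamini-Hochberg adjusted p under 0.05 over all genes tested. Isogenic pairs were compared as log2 CPM (prior count 2) for genes with at least 10 counts. Coordinates are those of GENCODE 44 on GRCh38, and start site windows those of RefSeq. Procedures were tested on simulated data.

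The subunits and gene lists were chosen with earlier results of these data known. Besides the 10 subunits and the targeted genes, at most 2 called genes with the highest and 2 with the lowest fold change per list were named, with a mean of at least 5 CPM. For EZH2 and EZH1 the 3 most correlated genes were named. FOXF2, KDM6A and KDM6B were named after their values were seen. All columns with values per sample were used. Some results of the gene lists are not reported here. Alternatives were DESeq2 1.42.0, other scalings, filters, pseudocounts, controls and fits, and the omission of each library in turn.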

Additional observations from a re-analysis of the deposited data

Results flagged for a closer look

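RBBP4 in the STAG2 KO libraries of experiments 1 and 2 had 1 library far below the others. STAG2 KO clone 5 of experiment 2 was at 360.4 CPM and the other 4 libraries were at 523 to 559 CPM, so that the gap was 0.817 of the whole range, above Dixon's critical value of 0.71 for 5 samples. This was 1 flag among 20 groups examined, and chance flags about 1 group in 20. The same clone had the highest RBBP7 (363 CPM) and the lowest EZH2 (171 CPM) and SUZ12 (53.5 CPM) of the STAG2 KO libraries.

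For PHF19 the change in libraries labelled STAG2 KO differed from that in libraries labelled STAG1 KO by −0.7974 on the log2 scale (adjusted p = 0.0154 by edgeR over 14696 genes). PHF19 was lower in 5 of 5 STAG2 KO libraries than in every control, while the 3 STAG1 KO libraries lay on both sides of their 2 controls. STAG1 itself was not called in the STAG1 KO libraries (−0.80, adjusted p = 0.376), and library 1, with STAG1 at the level of the controls (61.2 CPM), had the highest PHF19 of the 3 (87.9 CPM). Without it the PHF19 change in STAG1 KO was 0.04, against 0.15, and the difference from STAG2 KO was not tested without it.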

How the results depend on the processing

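The number of subunits called moved by over 1.5 times as follows. For STAG2 KO it was 3, 1 within experiment 2 alone, and 1 (without WT library 1 of experiment 2) to 5 (without clone 5 of experiment 2) when each library was left out. For SUZ12 KO it was 2, 1 with the WT clone as the only control, 4 with only SUZ12 KO and control libraries fitted, and 1 (without the parental library) to 2 leaving out each library. For EZH2 KO (3) it did not move by over 1.5 times, and ran from 2 to 4 leaving out each library. For EZH2 KO against SUZ12 KO it was 1, 2 with DESeq2, with library totals and without the filter on low counts, and 1 to 2 leaving out each library (2 without SUZ12 KO clone 3 or STAG2 KO clone 5). For STAG1 KO it was 0, 1 with DESeq2 and 0 to 1 leaving out each library (1 without library 1). For siSTAG2 it was 3, 1 with no minimum value, and 1 to 2 leaving out each library (1 without mock library 3 or siSTAG2 library 2 or 3). For the STAG2 KO minus STAG1 KO effect DESeq2 called 2 subunits and 1541 of 15632 genes, against 1 and 898 of 14696 with edgeR. For experiment 1 minus experiment 2 it called 3 subunits and 2216 of 14437 genes, against 0 subunits and no gene with edgeR. The cause was not tested.

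Uncalled values changed sign in these settings. With library totals only, MTF2 was at 0.14 in EZH2 KO and 0.12 in SUZ12 KO, and PHF19 at 0.0321 and RBBP7 at 0.11 in SUZ12 KO. Within experiment 2 alone, STAG2 KO gave AEBP2 0.089, EZH1 0.156 and RBBP4 −0.0599. EZH1 in siSTAG2 was at −0.00148 with edgeR on recovered reads. Leaving out each library, values ran from −0.0912 to 0.111 (MTF2) and −0.0404 to 0.46 (RBBP7) in EZH2 KO, −0.20 to 0.0029 (MTF2) and −0.17 to 0.0252 (RBBP7) in SUZ12 KO, −0.10 to 0.24 (EED) and −0.0119 to 0.22 (JARID2) in STAG1 KO, −0.22 to 0.0244 (EZH1) in STAG2 KO and −0.16 to 0.12 (EZH1) in siSTAG2. No called value changed sign in any setting. Of the values of single subunits under alternatives, 40 lost a call, 23 gained one and 19 changed sign. Another 759 were counted as unchanged, among them values of the isogenic pairs, which have no call to keep.

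Genes called over the whole table also moved, for STAG2 KO from 1687 to 494 (experiment 2 alone), 3663 (experiment 1 alone), 2621 (DESeq2) and 1053 (without WT library 1 of experiment 2) to 4048 (without clone 5) leaving out each library. For EZH2 KO the count moved from 2377 to 1441 with the WT clone as the only control and to 1169 and 3885 without the same 2 libraries, and for SUZ12 KO from 3112 to 1874 and 4797. For STAG1 KO it moved from 757 to 1943 (DESeq2) and was 0 without either control, with 2206 and 1668 genes at an unadjusted p under 0.05. With library totals 2065 genes were higher and 295 lower in EZH2 KO, against 1819 and 558, and 2556 and 493 in SUZ12 KO, against 2224 and 888.

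In the knockdown, samples that share a replicate number deviated together by correlations of only 0.026, 0.037 and 0.004, so the number was not taken as pairing, and mock library 3 was closer to siSTAG2 library 1 (0.006) than to library 3. With the replicate block the same 3 subunits were called, and 2881 genes in all against 2476. No paired analysis of the clones was possible because their numbers name clones and do not link a clone to a control.

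With 2 to 3 libraries per arm, differences such as that of EZH1 in EZH2 KO clones could not be told from no change, transcripts say nothing of protein or of H3K27me3, and the isogenic pairs have no error estimate.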
